A study of Mus musculus with 14 samples.

Results

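WDR5 peaks that were present in all 4 conditions of a study of MLL-AF9 leukaemia cells were examined by chromatin immunoprecipitation sequencing (ChIP-seq). The kept peaks were chosen by position: a WDR5 peak of the DMSO list on an autosome, no wider than 500 bp, that shared at least 1 bp with a WDR5 peak in each of the 3 other lists. This rule selected 1222 of the 14481 WDR5 peaks in the DMSO list. On the 19 autosomes the list held 14289 peaks, 13744 of them 500 bp or narrower, so 8.89% of the eligible peaks were kept (95% Wilson interval 8.43 to 9.38%). The other 12522 eligible peaks, called other peaks below, served for comparison.

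The cells were mouse bone marrow cells transduced with MLL-AF9, called MAF9 cells. MAF9 cells were treated for 2 days with 20 µM MM-401, or with DMSO, the solvent. MLL1 flox/flox, ER-cre+/- cells transduced with MLL-AF9 received 4-hydroxytamoxifen (4OHT) at 400 nM for 2 days to delete MLL1, or ethanol (EtOH). All 4 conditions therefore carried the MLL-AF9 fusion, and the MM-401 and 4OHT arms differed in cell genotype as well as in agent. Each combination of condition and antibody was 1 library, with no replicate. WDR5 and H3K4me2 were mapped in all 4 conditions and MLL1 in DMSO and MM-401 alone, so loss of MLL1 protein could not be checked in the 4OHT list. The cell type could not be checked against markers, since the lists hold peak positions and no expression.

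WDR5 is a core subunit shared by all MLL and SET1 histone H3 lysine 4 methyltransferase complexes, and it also occurs in other chromatin complexes. MLL1 is the catalytic subunit of one of these complexes, and MM-401 blocks the contact between MLL1 and WDR5. Dimethylation of H3 lysine 4 (H3K4me2) marks promoters and enhancers, where nucleosomes often flank a short stretch that is depleted of them. The MLL1 antibody recognises the C-terminal part of MLL1 by the study's account, and the MLL-AF9 fusion lacks that part.

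The lists hold chromosome, start and end of each peak, without height, score or reads, which leaves sequencing depth unknown and width as the only size to compare. Widths lie on a grid of 25 bp, except in the DMSO MLL1 list. Coordinates are those of the mm9 build as deposited. No mm9 genome or annotation was used here, so the peaks were assigned to no gene, promoter or sequence. Intervals reflect the number of peaks counted, as if adjacent peaks were independent, and hold nothing on variation between cultures.

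Being kept depended on width, which the rule used together with presence in each list. Of the 13744 eligible peaks, 38.8% were overlapped in MM-401, 32.7% in EtOH and 28.4% in 4OHT. The WDR5 lists differed in length, with 14289 autosomal peaks in DMSO, 17067 in MM-401, 33974 in EtOH and 40439 in 4OHT. Among peaks of 75 to 100 bp 1.92% were kept in all lists, among those above 100 and up to 200 bp 4.37%, among those above 200 and up to 300 bp 12.1% and among those above 300 bp 28.3%. These values are a description of the selection. At the width limit, 44 kept peaks were exactly 500 bp wide, and 30 of the 75 peaks that were 1 grid step wider were overlapped in all 3 other lists. At the overlap limit, the smallest overlap was 25 bp in 113 kept peaks. Among the 2761 peaks that lacked 1 list, 175 had a peak of that list 25 bp or less away, and 1509 had none within 2 kb.

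The kept peaks were about as wide in DMSO as in MM-401 and slightly narrower in 4OHT than in EtOH. Their median width was 300 bp in DMSO, 300 bp in MM-401, 275 bp in EtOH and 250 bp in 4OHT. The lists as a whole had medians of 175, 150, 125 and 125 bp in the same order, so the kept peaks lay high in each list, at a percentile of 80.6, 85.2, 88.4 and 88.4. Widths above 500 bp, which the rule did not allow in DMSO, occurred at 8.27% of kept peaks in MM-401, 159 peaks in EtOH and 157 in 4OHT. The widest overlapping peak was 2325 bp in MM-401, 6125 bp in EtOH and 3675 bp in 4OHT.

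**Figure D1:**
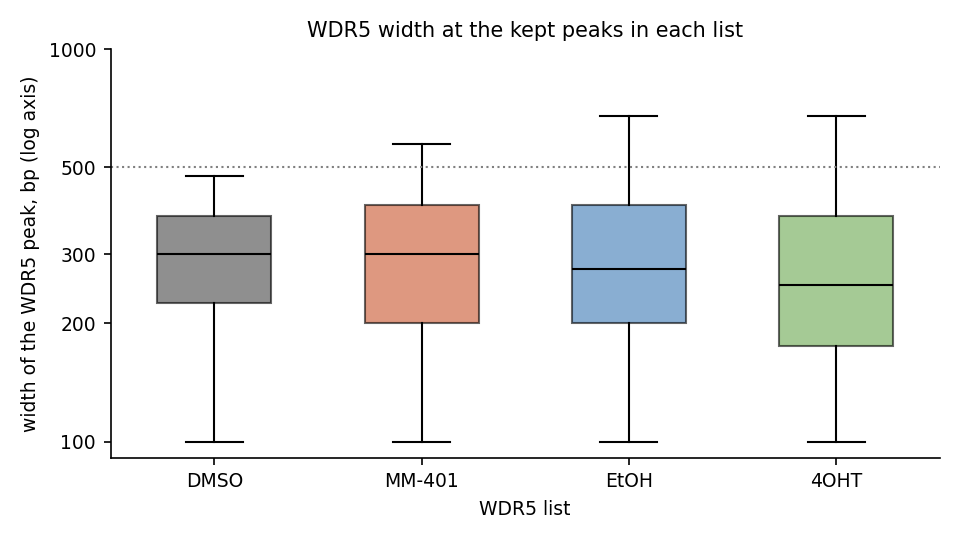
Width of the WDR5 peak at the 1222 kept peaks in each WDR5 list, in bp on a log axis. Boxes span the quartiles with the median as a line, whiskers reach the 5th and 95th percentiles, and the dotted line marks the 500 bp limit that the rule set in DMSO. The medians are 300, 300, 275 and 250 bp, and the boxes of the 4 lists overlap.

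From DMSO to MM-401, the WDR5 peak was wider at 585 kept peaks, equal at 83 and narrower at 554, with a median change of 0 bp and a mean of 12.8 bp (SD 164 bp over 1222 peaks). The sign followed the starting width. Peaks of 75 to 100 bp in DMSO had a median change of 125 bp, those above 100 and up to 200 bp 75 bp, those above 200 and up to 300 bp 0 bp, and those above 300 bp -50 bp. The 4104 other peaks that MM-401 overlapped gave 125, 50, -25 and -75 bp in the same classes. At the kept peaks the change from DMSO to EtOH, in other cells and without MM-401, had medians of 150, 100, 0 and -125 bp. DMSO width is a term of each of these differences, so the classes cannot show an effect of MM-401. The rule fixed an upper width in DMSO and none in MM-401, and these changes have no test. Without the width limit, over 1544 peaks, the mean change from DMSO to MM-401 was -76.2 bp and the median -25.0 bp.

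From EtOH to 4OHT, where the rule set no width, 512 kept peaks were wider, 74 equal and 636 narrower. The median change was -25.0 bp and the mean -31.4 bp (SD 274 bp), or -19 bp without 5 neighbouring kept peaks under 1 EtOH peak of 6125 bp on chromosome 17. The 944 other peaks overlapped in both EtOH and 4OHT but not in MM-401 also had a median change of -25.0 bp. A median change of 25 bp is 1 step of the grid. Read as percentiles of each list's own widths, the median change from EtOH to 4OHT was -0.0420 points, with an interval from -0.655 to 0.362.

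Widths at the kept peaks followed each other more closely between lists of the same cells than between the cell lines. Across the 1222 peaks Spearman's rho was 0.27 for DMSO with MM-401 and 0.42 for EtOH with 4OHT. It lay between -0.04 and 0.04 for the 4 pairings of a MAF9 list with a flox list. The width limit narrows the range of DMSO widths. Without the limit, over 1544 peaks, the values were 0.37 and 0.51 within cells and 0.12 to 0.27 between them. Peaks of 1 library share their depth and caller settings, and these values are a description.

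The WDR5 peaks of a kept site did not coincide exactly between lists. The distance between peak centres had a median of 50 bp for DMSO with MM-401, 62.5 bp for DMSO with EtOH, 75 bp for DMSO with 4OHT and for MM-401 with EtOH, and 87.5 bp for the other two pairings, EtOH with 4OHT included. A stretch common to all 4 lists had a median of 75 bp. It was at least 100 bp at 606 kept peaks, and it covered the whole DMSO peak at 61. At 211 kept peaks (17.3%) no base was common to all 4 lists, because the other lists overlapped different stretches of the DMSO peak.

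Most kept peaks lay in H3K4me2, as did most other peaks. In the DMSO H3K4me2 list 1084 kept peaks (88.7%, 86.8 to 90.4) overlapped an H3K4me2 peak, against 88.7% of all 13744 eligible peaks. In the MM-401 list the count was 1159 (94.8%, 93.5 to 95.9), against 92.6% of all. In the EtOH list it was 1177 (96.3%, 95.1 to 97.2), against 91.3% of all. In the 4OHT list it was 1135 (92.9%, 91.3 to 94.2), against 88.8% of all.

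Wider peaks overlap H3K4me2 more readily, and the difference was therefore also weighted to the kept peaks' exact widths. With this weighting, kept peaks lay in H3K4me2 less often than other peaks in DMSO, by 3.55 points (kept minus other -3.55, interval -5.44 to -1.65). In EtOH they lay in it more often, by 2.38 points (1.18 to 3.58). The interval of the weighted difference included 0 in MM-401 (-0.652, -1.98 to 0.675) and in 4OHT (0.752, -0.830 to 2.33). The unweighted differences were 0.0151 points in DMSO, 2.45 in MM-401, 5.49 in EtOH and 4.51 in 4OHT. The excess in EtOH was not particular to the kept peaks, each of which has an EtOH WDR5 peak by the rule. Without weighting, EtOH H3K4me2 held 97.7% of the 1205 peaks overlapped in EtOH alone and 97.5% of the 1048 in 4OHT alone. It held 88.7% of the 5221 peaks overlapped in no other list and 84.9% of the 2287 in MM-401 alone. The gap in DMSO was widest among the 64 kept peaks of 75 to 100 bp, of which 67.2% (55.0 to 77.4) overlapped H3K4me2, against 84.6% of other peaks of that width.

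**Figure D2:**
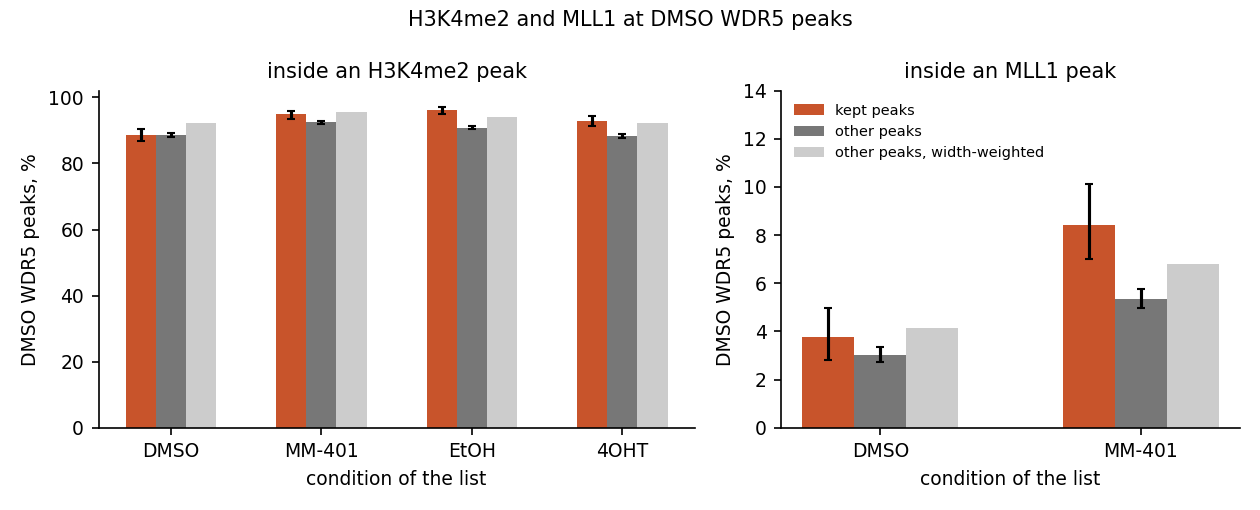
Share of DMSO WDR5 peaks of 500 bp or less that overlap an H3K4me2 peak (left, 4 conditions) or an MLL1 peak (right, 2 conditions), in percent. Orange bars are the 1222 kept peaks and dark bars the 12522 other peaks, with 95% Wilson intervals; light bars, drawn without an interval, are other peaks weighted to the kept peaks' widths. In DMSO the kept peaks stand at 88.7% for H3K4me2 and the weighted other peaks at 92.3%.

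H3K4me2 was present in all 4 conditions at 1053 kept peaks (86.2%, 84.1 to 88.0) and in none at 29 (2.37%, 1.66 to 3.39). Among other peaks 82.8% were in all 4 and 4.36% in none. Weighted to width, these differences were -1.55 points (-3.65 to 0.546) and -0.0931 points (-1.02 to 0.834), and both intervals included 0.

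In DMSO, H3K4me2 covered the middle of the kept peaks less often than the flanks and less often than it covered the middle of other peaks. In DMSO an H3K4me2 peak covered the centre base of 71.4% of kept peaks (68.8 to 73.8), against 81.3% of other peaks weighted to the same widths. The difference was -9.93 points (-12.7 to -7.17). By unweighted share, kept peaks were lower on 18 of 19 autosomes. At 300 bp from the centre the values were 85.3% and 85.4%, and at 1000 bp 65.0% and 60.2%. The dip was smaller in MM-401, where 84.9% of centres were covered against 89.2% (-4.29 points, -6.47 to -2.12). In 4OHT the centre was covered at 83.3% against 84.6% (-1.30, -3.61 to 1.0). In EtOH the kept peaks, each with an EtOH WDR5 peak by the rule, were covered more often, at 92.8% against 90.5% (2.33, 0.701 to 3.97). The centre was that of the DMSO WDR5 peak in every list. WDR5 centres in MM-401, EtOH and 4OHT lay a median of 50, 62.5 and 75 bp from it. The part of this offset in the differences between conditions was not tested.

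**Figure D3:**
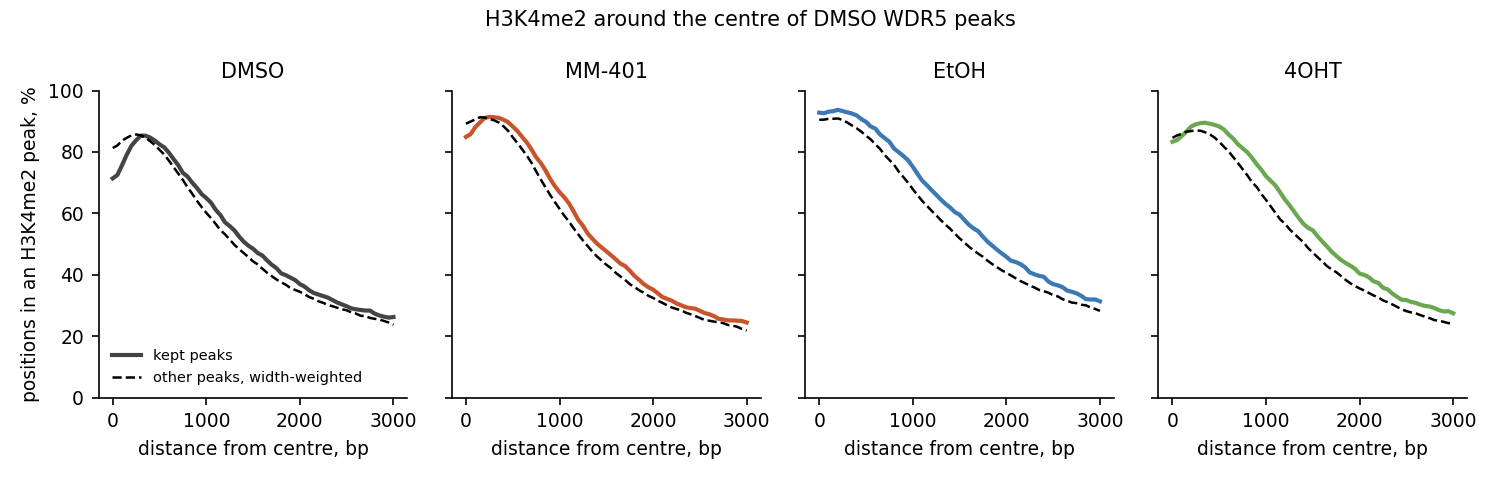
Share of positions lying in an H3K4me2 peak, in percent, against distance from the centre of the DMSO WDR5 peak in bp, both sides averaged, for each H3K4me2 list. Solid lines are the 1222 kept peaks and dashed lines the other peaks weighted to the same widths; the DMSO line of kept peaks starts at 71.4%, below the dashed line at 81.3%, and meets it at 300 bp.

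A valley was counted where the centre of the DMSO WDR5 peak lay outside H3K4me2 and an H3K4me2 peak lay on each side within 500 bp. The DMSO centre was used for all 4 H3K4me2 lists. In DMSO 246 kept peaks had a valley (20.1%, 18 to 22.5), against 9.14% of other peaks. Weighted to width the excess was 8.41 points (5.98 to 10.8). By unweighted share, kept peaks were higher on 18 of 19 autosomes. In MM-401 128 kept peaks had one (10.5%, 8.88 to 12.3), with a weighted excess of 4.44 points (2.59 to 6.30). In 4OHT 132 had one (10.8%, 9.18 to 12.7), with an excess of 3.33 points (1.44 to 5.22). In EtOH 42 had one (3.44%, 2.55 to 4.61), and the interval of the weighted difference of 0.425 points (-0.703 to 1.55) included 0. The stretch without H3K4me2 in a valley had a median of 275 bp in DMSO, 225 bp in MM-401, 200 bp in EtOH and 250 bp in 4OHT.

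The excess in DMSO was seen in each width class. Kept peaks of 75 to 100 bp had a valley in 18.8% of cases against 7.06% of other peaks, and those above 300 bp in 22.1% against 13.8%. The intervals of the difference in those classes were 3.95 to 22.9 points and 4.58 to 12.4 points. In MM-401 the interval also excluded 0 in each class. In 4OHT it excluded 0 in the classes up to 200 bp. There it included 0 above 200 and up to 300 bp (1.52 points, -1.19 to 4.98) and above 300 bp (2.69 points, -0.239 to 5.96).

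The valley share in DMSO rose with the number of other WDR5 lists that overlapped the peak. It was 4.69% (4.15 to 5.30) among the 5221 peaks overlapped in none, 10.2% (9.33 to 11.1) among the 4540 overlapped in 1, 15.9% (14.5 to 17.3) among the 2761 overlapped in 2 and 20.1% in the kept peaks. The valley was not particular to peaks kept under MM-401. The 944 peaks overlapped in EtOH and 4OHT but not in MM-401 had a share of 20.9% (18.4 to 23.6), an interval that includes 20.1%. The 2287 peaks overlapped in MM-401 alone had 8.79% (7.70 to 10.0). Width moved with these groups: the median DMSO width was 125 bp for peaks overlapped in no other list, 200 bp for those overlapped in EtOH and 4OHT without MM-401, 200 bp for those in MM-401 alone and 300 bp for the kept peaks.

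**Figure D4:**
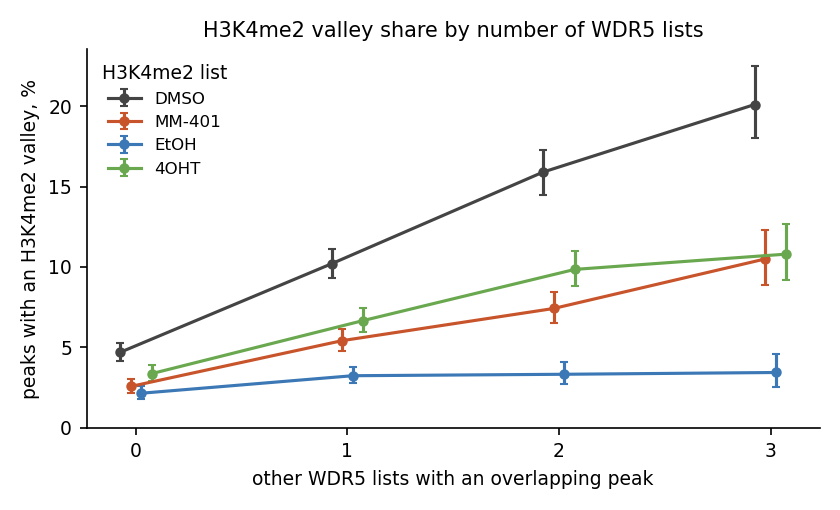
Share of DMSO WDR5 peaks with an H3K4me2 valley, in percent, against the number of other WDR5 lists with an overlapping peak, for each H3K4me2 list. Points are shares with 95% Wilson intervals, and the kept peaks are the points at 3 lists; in the DMSO H3K4me2 list the share goes from 4.69% to 20.1%, and in the EtOH list from 2.15% to 3.44%.

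The centre of a DMSO valley was often covered by H3K4me2 in another condition, at kept and at other peaks. Of the 246 kept peaks with a valley in DMSO, the centre was covered by H3K4me2 at 163 in MM-401 (66.3%, 60.1 to 71.9), at 223 in EtOH (90.7%, 86.4 to 93.7) and at 162 in 4OHT (65.9%, 59.7 to 71.5). For the 1145 other peaks with a DMSO valley the shares were 70.7, 82.7 and 59.1%. Kept minus other was 7.94 points in EtOH (3.18 to 11.8), and its interval included 0 in MM-401 (-11.0 to 1.84) and 4OHT (-0.0162 to 13.1). These differences were not weighted to width. The rule required an EtOH WDR5 peak at kept peaks and not at other peaks, so the EtOH difference cannot be told apart from the selection. A valley was present again at 80 kept peaks in MM-401 (32.5%), 20 in EtOH (8.13%) and 78 in 4OHT (31.7%). The shares of other peaks with a DMSO valley were 25.2, 9.17 and 30.7%. Counted over all 4 H3K4me2 lists, 882 kept peaks (72.2%) had a valley in none, 200 (16.4%) in 1, 82 (6.71%) in 2, 48 (3.93%) in 3 and 10 (0.818%) in all 4. The shares of other peaks were 84.7, 10.1, 3.45, 1.48 and 0.303%. The H3K4me2 lists differed in their peaks as a whole, with medians of 425 bp in DMSO, 450 bp in MM-401, 300 bp in EtOH and 400 bp in 4OHT. In the same order they held 102640, 89778, 98735 and 89250 autosomal peaks. The part of these differences in the valley shares was not tested, nor was that of using the DMSO centre in every list.

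In DMSO 138 kept peaks overlapped no H3K4me2 peak, and 84 of them (60.9%) had H3K4me2 on both sides within 1 kb, against 45.1% of other peaks outside H3K4me2 (difference 15.7 points, 7.01 to 23.9). Of these 84 kept peaks, 72 overlapped H3K4me2 in MM-401 (85.7%), 81 in EtOH (96.4%) and 59 in 4OHT (70.2%), and of the 639 such other peaks 77.6, 88.1 and 64.3%. The interval of the difference excluded 0 in EtOH (1.52 to 11.9 points) and included it in MM-401 (-1.46 to 14.9) and 4OHT (-5.18 to 15.4). None of the differences in this paragraph was weighted to width, and the one in EtOH has the same tie to the rule.

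The H3K4me2 domains that held kept peaks were about as wide as those that held other peaks. The 1084 kept peaks inside DMSO H3K4me2 lay in 1062 domains. Counted once per WDR5 peak, the domain had a median width of 2150 bp for kept peaks and 2125 bp for other peaks. All H3K4me2 peaks of the list had a median of 425 bp. Wider domains are overlapped more readily at any position, so that median cannot show that the hosts were unusually wide. The domain medians were 2500 bp in MM-401, 3375 bp in EtOH and 2675 bp in 4OHT for kept peaks, and 2425, 3250 and 2625 bp for other peaks. In DMSO 715 kept peaks (66.0%) lay wholly inside their domain, against 84.9% of other peaks, which were narrower, and 76.4% of other peaks weighted to the same widths (-10.5 points, -13.6 to -7.35). The weighted difference was -6.12 points (-8.64 to -3.60) in MM-401, -3.63 (-6.27 to -0.990) in 4OHT and 0.0189 (-1.78 to 1.81) in EtOH. Without weighting, the median distance to the nearer edge in DMSO was 0.243 of the domain's width for kept peaks and 0.292 for other peaks. In peaks of 75 to 100 bp the order was the opposite, 0.312 against 0.299. In EtOH the values were 0.347 and 0.340, and in 4OHT 0.310 and 0.313.

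The WDR5 peak was alone in its DMSO domain at 812 of the kept peaks (74.9%) and at 71.6% of other peaks. At least 2 further WDR5 peaks shared the domain at 84 kept peaks (7.75%) and at 7.17% of other peaks.

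From DMSO to MM-401 the host domain was wider at 655 of the 1072 kept peaks in H3K4me2 of both (61.1%, 58.1 to 64.0), against 55.4% of other peaks, with a weighted difference of 5.93 points (2.64 to 9.22). The median ratio of widths was 1.06 for kept peaks and 1.03 for other peaks. Of the kept peaks inside DMSO H3K4me2, 12 (1.11%) were outside it in MM-401, against 2.04% of other peaks (-0.937 points, -1.49 to -0.0825). Of the 138 outside it in DMSO, 87 (63.0%) were inside in MM-401, against 48.8% of other peaks (14.2 points, 5.54 to 22.3). These shares were not weighted to width. From EtOH to 4OHT the host was wider at 268 of 1129 kept peaks (23.7%), against 23.8% of other peaks. The interval of the weighted difference of -1.17 points (-3.96 to 1.63) included 0. The median ratio was 0.886 for kept peaks and 0.892 for other peaks, and H3K4me2 was lost at 48 kept peaks (4.08%) and 4.13% of other peaks. Of 45 kept peaks outside H3K4me2 in EtOH, 6 (13.3%) were inside in 4OHT, against 14.2% of other peaks.

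MLL1 was present at a small part of the kept peaks. In the DMSO MLL1 list 46 kept peaks (3.76%, 2.83 to 4.98) overlapped an MLL1 peak, against 3.10% of all 13744 eligible peaks. Weighted to width, kept minus other was -0.363 points (-1.60 to 0.876). In the MM-401 MLL1 list 103 kept peaks (8.43%, 7.00 to 10.1) overlapped an MLL1 peak, against 5.62% of all. The unweighted difference was 3.09 points (1.60 to 4.82), and with weighting it was 1.64 points, with an interval of -0.0897 to 3.36 that includes 0. By number of other WDR5 lists overlapped, the share with MM-401 MLL1 was 5.36% for none, 5.42% for 1, 5.18% for 2 and 8.43% for the kept peaks. The DMSO and MM-401 MLL1 lists were made with different callers and hold 8482 and 26845 autosomal peaks, and are not compared with each other.

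Within 2 kb, MLL1 was more frequent near kept peaks than near other peaks of the same widths in each list. In DMSO 229 kept peaks (18.7%, 16.7 to 21.0) had an MLL1 peak within 2 kb, against 15.8% of weighted other peaks (2.96 points, 0.547 to 5.38). In MM-401 472 kept peaks (38.6%, 35.9 to 41.4) had one, against 35.1% (3.50 points, 0.465 to 6.54). Without weighting, kept peaks were higher within 2 kb on 12 of 19 autosomes in DMSO and on 11 of 19 in MM-401. Within 1000 bp the weighted intervals, -0.214 to 4.16 points in DMSO and -0.137 to 5.62 points in MM-401, included 0. Within 200 bp the differences were 0.0246 points (-1.51 to 1.55) and 0.283 points (-1.86 to 2.43). MLL1 lay somewhere in the host H3K4me2 domain of 17.3% of kept peaks in DMSO and 38.1% in MM-401, against 16.1% and 36.2% of other peaks, with intervals of the difference from -1.06 to 3.64 and from -1.05 to 4.80 points.

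Both MLL1 lists marked 13 kept peaks (1.06%, 0.623 to 1.81), against 0.303% of other peaks. The weighted difference was 0.469 points (-0.167 to 1.11). At least 1 of the lists marked 136 kept peaks (11.1%), against 8.07% of other peaks. Weighted to width that difference was 0.805 points (-1.18 to 2.79). Of the 13, 5 lay under the widest EtOH WDR5 peak, chr17:39979751-39985875, which is 6125 bp long. All 5 were outside H3K4me2 in DMSO. At chr17:39985151-39985425 and chr17:39985451-39985675 among them, the MM-401 MLL1 peak was 6100 bp wide, the widest of its list. The 4OHT H3K4me2 domain was 6175 bp at both. The lists hold no reads, so how reads mapped to this stretch was not tested. Without these 5 kept peaks, kept minus other for MLL1 was 0.334 points in DMSO and 2.71 points in MM-401 before weighting.

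The 6 kept peaks with H3K4me2 in all 4 conditions, MLL1 in both lists and the smallest spread of width show the range of hosts. At chr1:197067676-197068150 the WDR5 peak was 475 bp in DMSO, 375 bp in MM-401, 500 bp in EtOH and 1 grid step more than that in 4OHT, in H3K4me2 domains of 950, 1075, 700 and 775 bp. At chr3:5860451-5860850 the widths were 400, 225, 450 and 250 bp, in domains of 475 bp (DMSO), 500 bp (MM-401 and 4OHT) and 1 grid step above 500 bp (EtOH). The other 4, chr4:151383251-151383600, chr13:102488851-102489125, chr11:98657576-98658050 and chr11:119251451-119251925, lay in wider domains, of 2600 to 10400 bp over the 4 conditions. These 6 hosts ranged from 475 to 10400 bp.

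The 29 kept peaks outside H3K4me2 in all conditions had median widths of 225 bp (DMSO), 300 bp (MM-401), 300 bp (EtOH) and 375 bp (4OHT). None of the 29 overlapped DMSO MLL1 (Wilson upper limit 11.7%) and 1 overlapped MM-401 MLL1 (3.45%, 0.611 to 17.2). The shares were 3.80% and 8.74% for kept peaks in H3K4me2 of all 4 conditions, and 3.10% and 5.62% for all eligible peaks. The intervals of the 29 include these shares, so the counts show no lack of MLL1. Of the 29, 14 were more than 2 kb from H3K4me2 in every list. The widest in DMSO, chr3:157725026-157725525, was 500 bp in DMSO, 475 bp in MM-401, 400 bp in EtOH and 375 bp in 4OHT, with the nearest H3K4me2 between 23551 and 23851 bp away. At chr11:32242476-32242975 the widths were 500, 475, 675 and 575 bp and H3K4me2 lay 4226 to 4426 bp away. At chr2:154932926-154933350 they were 425, 350, 925 and 475 bp and H3K4me2 lay 4451 to 4651 bp away. At chr11:113430826-113431175 they were 350, 450, 125 and 175 bp, and at chr14:23959501-23959850 350, 325, 250 and 125 bp. The nearest H3K4me2 of these 5 lay 151 to 23851 bp away over the 4 conditions.

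The largest changes of width were single regions. At chr1:90174826-90175175 the WDR5 peak was 350 bp in DMSO and 2325 bp in MM-401, with 125 bp in 4OHT, in an H3K4me2 domain of 7750 to 8975 bp. At chr19:53393551-53393700 it was 150 bp in DMSO and 825 bp in MM-401. The largest loss under MM-401, -375 bp, was shared by 5 kept peaks. The first 2 by position were chr1:135506376-135506825, from 450 to 75 bp, and chr1:182834326-182834825, from 500 to 125 bp. At chr7:130113626-130114025 the width was 125 bp in EtOH and 1150 bp in 4OHT, and at chr4:108506551-108506775 it was 200 and 975 bp. The largest losses from EtOH to 4OHT were 2 neighbours under the 6125 bp EtOH peak, chr17:39985151-39985425 and chr17:39985451-39985675, where the 4OHT peak was 2200 bp.

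At the width limit, chosen by position, 2 kept peaks and 2 peaks just outside it were read. At chr1:74552601-74553100 the widths were 500 bp in DMSO, 575 bp in MM-401, 125 bp in EtOH and 225 bp in 4OHT, and at chr1:88400501-88401000 they were 500, 325, 225 and 300 bp. Just outside the limit, chr1:39582551-39583075 was 400 bp wide in MM-401, 450 bp in EtOH and 150 bp in 4OHT, and chr1:130510951-130511475 was 250, 325 and 150 bp wide.

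Most kept peaks had no other kept peak nearby. Another kept peak lay within 2 kb of 63 of them (5.16%, 4.05 to 6.54), while 3.37% of all eligible peaks had a kept peak that near. The 63 formed 30 pairs and 1 run of 3, and 41 of them shared an overlapping peak in another list with a neighbour, which can make both kept. The median distance to the nearest kept peak was 233 kb (quartiles 74.0 and 836 kb). Another DMSO WDR5 peak of any kind lay within 2 kb of 368 kept peaks (30.1%, 27.6 to 32.7), against 31.7% of all, and the weighted difference from other peaks was 0.643 points (-2.22 to 3.51). No DMSO H3K4me2 domain held more than 2 kept peaks, and 22 held 2. One of these, 4650 bp wide, held chr1:36613601-36613925 and chr1:36614326-36614575, whose widths were 325, 575, 275 and 125 bp, and 250, 575, 175 and 100 bp, in DMSO, MM-401, EtOH and 4OHT.

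The share of eligible peaks that were kept varied between autosomes from 5.84% on chromosome 18 (18 of 308, interval 3.73 to 9.05) to 11.0% on chromosome 11 (102 of 930, 9.12 to 13.1). The largest count was on chromosome 1, with 131 of 1448.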

How the data were processed

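Peak positions of 10 ChIP-seq libraries were analysed, 1 for each antibody and condition, and the 4 inputs were not used. The authors deposited start and end of each peak, aligned to mm9 with Bowtie per the labels' processing notes, and other values (score, height, reads, p-value) are not used here. In 9 lists each peak has a HPEAK name and lies on a 25 bp grid, and its start and end were taken as 1-based, end included. The MLL1 list of DMSO, which has neither, came from MACS by the study's account, which gives a p-value cutoff for MLL1 peaks, and was read as 0-based, leaving a possible error of 1 bp. The version of the aligner and the thresholds of the HPEAK lists are not given in the sources used here.

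Overlap of 1 bp or more was computed in Python 3.11 with numpy and pandas, checked against bedtools and tested on simulated lists with known overlaps. Shares carry 95% Wilson intervals and differences 95% Newcombe intervals. Weighted differences compare kept peaks with other peaks in strata of exact DMSO width, with a binomial variance. No p-value was computed, since each group is 1 library. The interval of a median is from binomial order statistics. The kept peaks, the comparison groups and the measures were chosen with earlier results of these data known, and the centre and valley measures after the profile around the kept peaks had been seen. Regions were named by rule: the 6 kept peaks with H3K4me2 in all conditions, MLL1 in both lists and the smallest spread of width; up to 5 without H3K4me2, widest first; the 2 largest gains and losses of width per comparison; those in the DMSO H3K4me2 peak with most kept peaks; and 2 on each side of the width limit. None is on chromosome 18. Alternatives tried were other overlap rules, distances, width limits, list lengths, joined H3K4me2 peaks and left-out regions. The planned gene, promoter and motif analysis was not run, because the reference used here is of another build.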

Additional observations from a re-analysis of the deposited data

Results flagged for a closer look

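Between the MM-401 and 4OHT arms, 4 measures at the kept peaks moved in opposite directions. Each arm is 1 library per condition, so the differences between arms were not tested, and cell genotype and agent cannot be told apart. The share of kept peaks in H3K4me2 went from 88.7% to 94.8% under MM-401 and from 96.3% to 92.9% under 4OHT, a difference of changes of 9.57 points. The share with a valley at the DMSO WDR5 centre went from 20.1% to 10.5% and from 3.44% to 10.8%, a difference of -17.0 points. The median host H3K4me2 width went from 2150 to 2500 bp and from 3375 to 2675 bp, a difference of 1050 bp. The mean WDR5 width changed by 12.8 bp and -31.4 bp, a difference of 44.2 bp, while the median changed by 0 and -25.0 bp. The rule limited width in DMSO and in no other list. Without that limit the means changed by -76.2 and -47.4 bp, in the same direction, and without the 5 kept peaks under the widest EtOH peak by 11.7 and -19 bp.

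All 4 moved in the same directions at other peaks: from 88.7% to 92.4% and from 90.8% to 88.4% in H3K4me2, from 9.14% to 4.67% and from 2.80% to 6.0% with a valley, and from 2125 to 2425 bp and from 3250 to 2625 bp in host width. The mean WDR5 width changed by 23.1 bp at the 4104 other peaks overlapped in MM-401 and by -14.4 bp at the 944 overlapped in EtOH and 4OHT without MM-401.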

How the results depend on the processing

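The number of kept peaks moved with the overlap rule. It was 527 where each list had to cover 50% of the peak, 2008 with gaps up to 200 bp, 4490 with gaps up to 2000 bp, 655 from the widest 50% of each WDR5 list, 798 with the longer lists reduced to the DMSO number and 671 at 300 bp or less. The median change from DMSO to MM-401 was -25.0 bp without the width limit and -25.0 bp when the rule started from the MM-401 list. The share of kept peaks in H3K4me2 in DMSO, MM-401, EtOH and 4OHT was 76.4, 89.4, 93.9 and 86.3% with 50% of the peak covered, 58.5, 76.2, 88.1 and 73.6% with all of it covered, 97.5, 98.2, 98.1 and 98.3% within 2 kb, and 86.3, 92.8 and 90.5% (DMSO, MM-401, 4OHT) for the widest 50% of the H3K4me2 lists. Weighting to width turned the difference in H3K4me2 to -3.55 points in DMSO and -0.652 in MM-401. It took that in 4OHT to 0.752, with an interval that included 0. It turned the MLL1 difference in DMSO to -0.363 and took that in MM-401 to 1.64, and turned that for another DMSO WDR5 peak within 2 kb to 0.643. MLL1 was at 6.22% and 13.3% of kept peaks within 200 bp, and at 18.7% and 38.6% within 2000 bp, in DMSO and MM-401. Joining H3K4me2 peaks up to 500 bp apart gave median hosts of 3300, 3400, 4500 and 3850 bp. At the widest distance tried, 10 kb, 8.84% of kept peaks had another kept peak nearby. Without the width limit the mean change from DMSO to MM-401 was -76.2 bp. Weighting turned the difference in peaks wholly inside EtOH H3K4me2 to 0.0189 points. Of 78 alternatives, 38 counted as unchanged. For a difference this meant the same sign and an interval that included or excluded 0 as before. The value could still leave the first interval: the weighted DMSO valley excess of 8.41 points lay below the unweighted 8.77 to 13.4. Among the 38 were all of the valley: weighted to width, with flanks of 1000 bp, without the 5 peaks of chromosome 17, with 1 peak per run and, in DMSO, without chromosome 1. These, the mean width changes and the weighted shares wholly inside H3K4me2 were alternatives added after seeing the data. No paired analysis was possible because each group is 1 library, so no library could be left out either. The start-site alternative was not run. The depth behind the lists is unknown and limits every comparison between lists.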
